A study of Brassica rapa with 23 samples.

Results

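The 2 Brassica rapa genes Bra000310 and Bra017219 were followed in 23 RNA-Seq libraries out of 41020 genes listed per library. The paper names Bra000310 an endochitinase and Bra017219 an S-adenosylmethionine synthase 3. Both were picked in the study from these libraries for a higher level with chitin at 180 min alone, so every contrast of chitin or flg22 with water, and of chitin with flg22, is given here as a description without a test. Leaf discs came from the first true leaf of 17-day-old wild type plants of the cultivar Norang and each replicate was a pool of discs. They received chitin, the polymer of fungal cell walls, here from shrimp shell (100 μg per ml), flg22 (100 nM, a peptide of bacterial flagellin) or water. Chitin and flg22 had 3 libraries each at 180 min and 3 each at 30 min, and water had 6 libraries at 180 min and 5 at 30 min. Since several water libraries carry 1 replicate number, a water library is written with its sample number as well, so that 1-s7 is sample 7 of replicate 1. The study kept a set of water controls for each microbe-associated molecular pattern (MAMP). Its supplement lists the water library of replicate 1 at 30 min as shared by both sets. For the other water libraries, the labels do not say which belonged to which set. All water libraries of a time point therefore served both MAMPs here, the chitin and flg22 values share these controls, and the range over each possible choice of 1 water library per replicate number is given beside the values at 180 min. No leaf marker gene is paired with an identifier in the sources used here, so the tissue label was not checked.

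Endochitinases cut chitin inside the chain. Plants make no chitin of their own, and plant chitinases act on the walls of fungi and release fragments that LysM-type receptors at the cell surface can bind. In Arabidopsis, CERK1 and LYK5 take part in chitin perception and FLS2 perceives flg22. S-adenosylmethionine synthases join methionine and ATP to give S-adenosylmethionine, the main methyl donor of the cell, used among others for the methylation of lignin precursors, and a precursor of ethylene and polyamines. Plant S-adenosylmethionine synthases form families of very similar genes. How reads that fit several copies were assigned is not given in the sources used here, so the values of Bra017219 are uncertain to the extent that copies share reads.

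Both genes lie on the minus strand of the v1.5 build of the B. rapa genome. Bra000310 spans chromosome A03 from 10496406 to 10497525 (1120 bases) and Bra017219 spans chromosome A04 from 16058827 to 16059999 (1173 bases). The study also measured these transcripts by quantitative PCR, and its primers are shown because they are the gene sequences used to assay these transcripts. They are given 5′ to 3′ in lower case, with no base singled out.
Bra000310 forward: gcgttctttgctcacgtcac
Bra000310 reverse: gttccaggagagctggatcg
Bra017219 forward: actcaccgggaggaagatca
Bra017219 reverse: acgacacctggacaatgcag
All 4 primers are 20 bases long with a GC content of 55.0% or 60.0%. From quantitative PCR on other biological samples, the paper reports that both transcripts rose with chitin alone. Those quantitative PCR values are not part of the data described here.

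Expression is given as FPKM, the fragments mapped to a transcript relative to its length and to the mapped total of the library, which allows levels to be compared between genes. The coverage of Bra000310 was between 67.2 and 685 reads per base over the 23 libraries and that of Bra017219 between 48.4 and 1046, so neither gene was near the detection limit in any library. The libraries held 4.09 to 5.64 gigabases of aligned reads (median 4.72). Of the 41020 genes, 24384 had at least 1 FPKM in at least 3 libraries and entered the model, both members included. Fold changes are on the log2(FPKM + 1) scale and come from 1 limma model of all 6 conditions.

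After 180 min, Bra000310 had 108, 129.9 and 145 FPKM in the chitin libraries, against 35.8, 32.7 and 43.1 FPKM in the flg22 libraries. In the 6 water libraries of that time the lowest value was 16.4, the median 22.9 and the highest 41.6 FPKM. The endochitinase transcript was thus highest in all 3 chitin libraries, without overlap with flg22 or water, while the flg22 and water libraries overlapped. That overlap came from water library 1-s7 alone, at 41.6 FPKM, since every other water library at 180 min was at or under 24.8 FPKM. If 1-s7 was not a control for flg22, which the labels leave unstated, the flg22 libraries did not overlap with their own controls. The means were 128 ± 18.5 FPKM in chitin, 37.2 ± 5.32 in flg22 (SD, n = 3 each) and 24.9 ± 8.75 in water (SD, n = 6). In bulk tissue, more transcript per cell and more cells that carry the transcript cannot be told apart.

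The fitted log2 fold change of Bra000310 at 180 min was 2.36 (standard error 0.23) for chitin over water, a 5.14-fold difference, and 0.61 (standard error 0.23) for flg22 over water, a 1.53-fold difference. For chitin over flg22 it was 1.75 (standard error 0.26). Of all tested genes, 1.75% had a larger fitted value for chitin over water and 0.636% for chitin over flg22. With 1 water library per replicate number, the values over water ran from 2.08 to 2.65 for chitin and from 0.33 to 0.90 for flg22. Among all tested genes the transcript stood between the percentiles 94.0 and 95.6 in the chitin libraries at 180 min, between 78.5 and 83.3 in flg22 and between 62.8 and 83.1 in water.

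Bra017219 had 193, 198 and 86.5 FPKM in the chitin libraries at 180 min, against 63.3, 75.5 and 58.8 FPKM in the flg22 libraries. In water at 180 min the lowest value was 10.4, the median 26.9 and the highest 41.7 FPKM. The synthase transcript therefore showed 3 separate steps, with every chitin library above every flg22 library and every flg22 library above every water library. The step from flg22 to chitin was narrow for chitin replicate 3, which at 86.5 FPKM lay below the 2 other chitin libraries and close to the highest flg22 library. The means were 159 ± 63.1 FPKM in chitin, 65.9 ± 8.66 in flg22 (SD, n = 3 each) and 26.8 ± 11.6 in water (SD, n = 6).

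**Figure D1:**
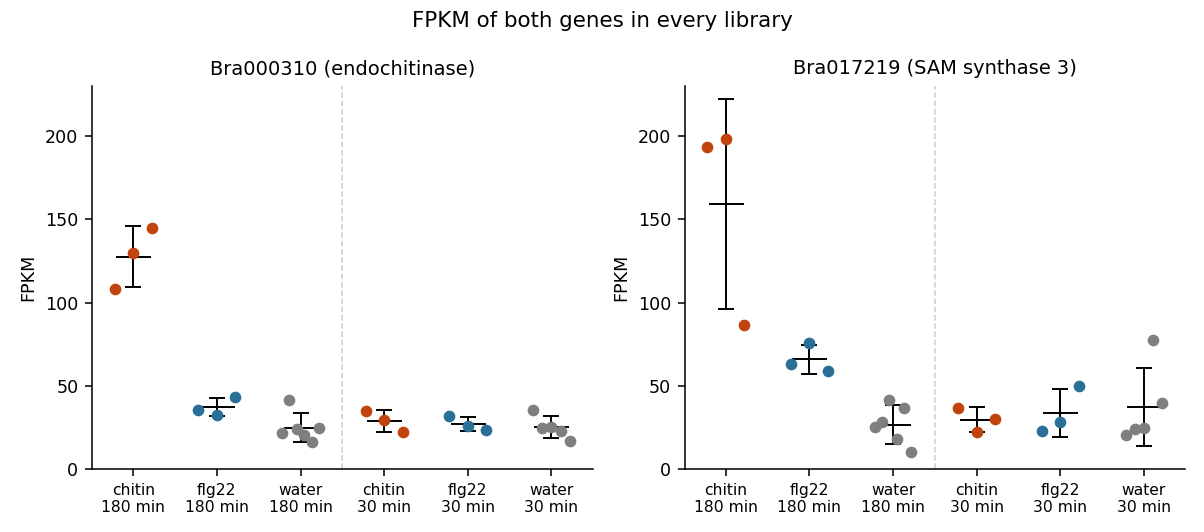
FPKM of the endochitinase gene Bra000310 (left) and the S-adenosylmethionine synthase gene Bra017219 (right) by condition; each point is a library, the horizontal mark is the mean and the bars are the SD (n = 3 for chitin and flg22, 6 for water at 180 min, 5 for water at 30 min). The chitin libraries at 180 min sit between 108 and 145 FPKM for Bra000310 and between 86.5 and 198 for Bra017219, above all other libraries.

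Its fitted log2 fold change at 180 min was 2.56 (standard error 0.41) for chitin over water, a 5.91-fold difference, and 1.39 (standard error 0.41) for flg22 over water, a 2.62-fold difference. For chitin over flg22 it was 1.18 (standard error 0.47), and 1.56 without chitin replicate 3. With 1 water library per replicate number, the values over water ran from 2.05 to 3.07 for chitin and from 0.88 to 1.89 for flg22, so a difference under 2-fold with flg22 was within the range. Of all tested genes, 1.42% had a larger fitted value for chitin over water, 3.92% for flg22 over water and 2.21% for chitin over flg22. The transcript stood between the percentiles 92.0 and 97.1 in chitin, 87.9 and 90.8 in flg22 and 54.5 and 83.3 in water.

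Both members had every chitin library at 180 min above every water library of that time, as did 20.1% of the tested genes, and both had every chitin library above every flg22 library, as did 14.4%. Every flg22 library exceeded all 6 water libraries at 180 min in 1 of the 2 members, Bra017219, and in 20.8% of the tested genes. In both members the chitin libraries at 180 min lay above all 20 other libraries of the series, which held for 3.52% of the tested genes. The order of chitin over flg22 over water without overlap was found for Bra017219 only, and for 4.13% of the tested genes. These shares describe the contrasts by which the genes were chosen.

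At 30 min no such separation was seen in either gene, while 10.3% of the tested genes had every chitin library and 12.2% every flg22 library above every water library. Bra000310 had 35.1, 29.7 and 22.2 FPKM in chitin and 32.0, 26.0 and 23.3 FPKM in flg22, against 35.5, 24.5, 25.3, 23.1 and 17.2 FPKM in water. All 3 conditions overlapped, and their means were 29.0 ± 6.47 FPKM in chitin, 27.1 ± 4.42 in flg22 (SD, n = 3 each) and 25.1 ± 6.61 in water (SD, n = 5). The fitted log2 fold changes were 0.21 for chitin and 0.13 for flg22 over water (standard error 0.23 each).

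Bra017219 had 36.9, 22.4 and 30.2 FPKM in chitin at 30 min and 23.0, 28.3 and 50.2 FPKM in flg22. The 5 water libraries of that time were at 20.8, 24.2, 24.7, 77.4 and 39.8 FPKM. The chitin and flg22 libraries lay within the range of water, whose highest value, in library 3-s17, was above all chitin, flg22 and water libraries but the 3 chitin libraries at 180 min. The means were 29.8 ± 7.22 FPKM in chitin, 33.8 ± 14.4 in flg22 (SD, n = 3 each) and 37.4 ± 23.5 in water (SD, n = 5). The fitted log2 fold changes were -0.17 for chitin and -0.04 for flg22 over water (standard error 0.42 each), and 0.14 and 0.26 without water library 3-s17.

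The choice of scale touched the values at 30 min, since over the whole set of tested genes the log2 fold change had a median of -0.46 with chitin and -0.47 with flg22. Relative to these medians, Bra000310 stood 0.67 higher with chitin and 0.60 higher with flg22, and Bra017219 0.29 and 0.43 higher. After median-ratio scaling of the libraries, the log2 fold changes over water at 30 min were 0.70 for chitin and 0.63 for flg22 in Bra000310, and 0.32 and 0.46 in Bra017219, whose sign thus turned. At 180 min the same scaling gave 2.49 and 0.60 for Bra000310 and 2.69 and 1.38 for Bra017219.

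**Figure D2:**
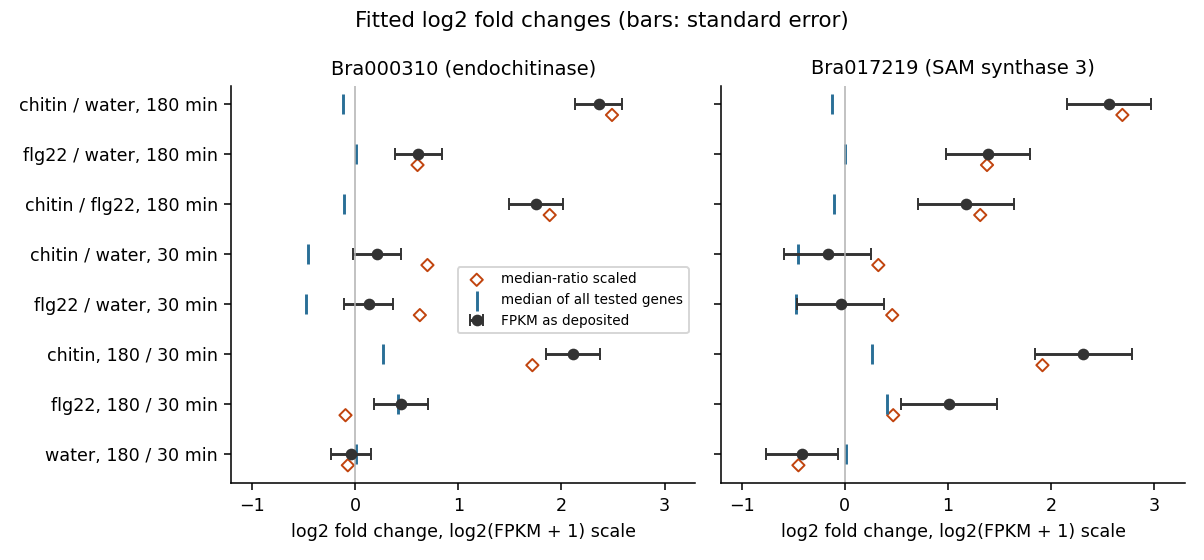
Fitted log2 fold changes of both genes on the log2(FPKM + 1) scale (filled circles, bars are standard errors), the same after median-ratio scaling (open diamonds) and the median of all tested genes (vertical ticks), for 8 contrasts. The values for chitin over water at 180 min are 2.36 and 2.56, and those at 30 min are 0.21 and -0.17.

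Time alone was tested in the water libraries, since this contrast did not choose the genes. The water libraries of both times also served in the contrasts that did, so the test was not fully independent of that choice. Bra000310 averaged 24.9 ± 8.75 FPKM in water at 180 min (SD, n = 6) and 25.1 ± 6.61 FPKM in water at 30 min (SD, n = 5). Its log2 fold change over time was -0.04 (standard error 0.19, 95% interval -0.44 to 0.37, Benjamini-Hochberg adjusted p = 0.946 in limma), and an exact two-sided permutation test of the 11 libraries gave p = 0.879. For Bra017219, at 26.8 ± 11.6 FPKM in water at 180 min (SD, n = 6) and 37.4 ± 23.5 at 30 min (SD, n = 5), it was -0.42 (standard error 0.35, 95% interval -1.14 to 0.31, adjusted p = 0.539 from limma). The exact permutation p was 0.379. Neither gene passed an adjusted p of 0.05, while 5.67% of the tested genes were higher and 5.74% lower at that threshold. The interval of Bra017219 was wide enough to hold a fall of more than 2-fold.

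In chitin-treated discs the levels at 180 min were far above those at 30 min, with log2 fold changes of 2.11 (standard error 0.26) for Bra000310 and 2.31 (standard error 0.47) for Bra017219. In flg22-treated discs Bra000310 had 32.7 to 43.1 FPKM at 180 min and 23.3 to 32.0 FPKM at 30 min, a log2 fold change of 0.45 (standard error 0.26) that did not exceed the median of all tested genes, 0.41, by more than its error. Bra017219 had 58.8 to 75.5 FPKM at 180 min and 23.0 to 50.2 FPKM at 30 min in flg22, with a log2 fold change of 1.01 (standard error 0.47). Both members had every library at 180 min above every library at 30 min with flg22, as did 51.8% of the tested genes, and with chitin, as did 43.8%. After median-ratio scaling the flg22 value at 180 over 30 min was -0.094 for Bra000310 and 0.47 for Bra017219.

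By mean level, Bra000310 followed the order chitin at 180 min, flg22 at 180 min, chitin at 30 min, flg22 at 30 min, water at 30 min and water at 180 min. Bra017219 followed the order chitin at 180 min, flg22 at 180 min, water at 30 min, flg22 at 30 min, chitin at 30 min and water at 180 min. In both lists the first step alone was free of overlap, and all later neighbours had libraries within each other's range.

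The 2 genes reached a similar height with chitin at 180 min but varied differently between libraries of 1 condition. The coefficient of variation of Bra000310 was 14.5% in chitin at 180 min, 14.3% in flg22 at 180 min and 35.2% in water at 180 min. For Bra017219 it was 39.6% in chitin, 13.1% in flg22 and 43.3% in water at 180 min, and 63.0% in water at 30 min. In chitin replicate 3 at 180 min, Bra017219 was 1.17 lower on the log2 scale than the mean of replicates 1 and 2, and 0.6% of the tested genes were lower still. In the same library Bra000310 was 0.29 higher, at its own highest value of 145 FPKM. The ratio of Bra017219 to Bra000310 was accordingly 0.597 in that library, against 1.79 and 1.53 in chitin replicates 1 and 2.

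Water libraries also parted the genes. In library 3-s17 at 30 min, Bra017219 was 1.51 above the mean of the other water libraries of that time on the log2 scale while Bra000310 was 0.10 below it. In library 1-s7 at 180 min the differences were 0.94 for Bra000310 and 0.25 for Bra017219. In library 3-s23 of the same time they were 0.06 for Bra000310 and -1.39 for Bra017219. Over the 23 libraries, which share the conditions, the log2 levels of both genes had a Pearson r of 0.69 and a Spearman rho of 0.39. Without the 3 chitin libraries at 180 min the r of the remaining 20 libraries was 0.15, and r was -0.32 for the deviations from the condition means, so the common pattern of the pair rests on the chitin libraries at 180 min.

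**Figure D3:**
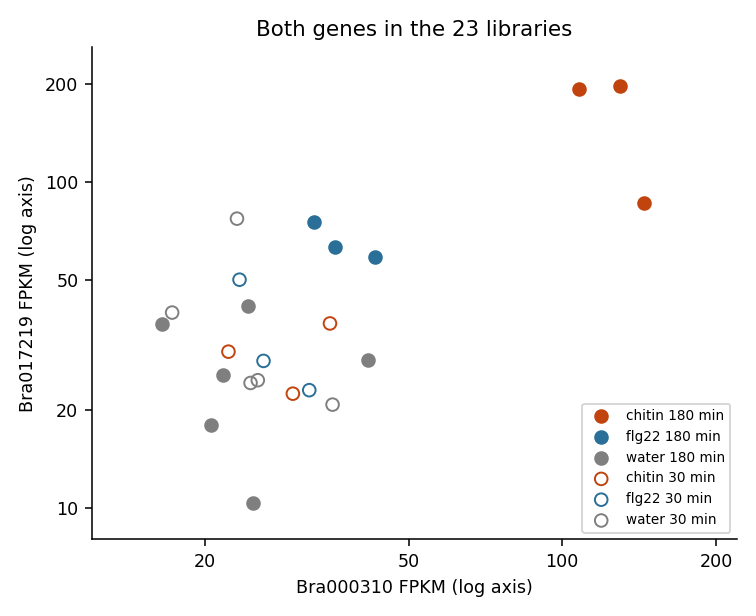
FPKM of Bra017219 against Bra000310 in the 23 libraries, both on log axes, filled for 180 min and open for 30 min, coloured by treatment. The 3 chitin libraries at 180 min stand apart at 108 FPKM or more of Bra000310, while the other 20 libraries show little common order (r = 0.15).

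The genes most like each member were sought by Pearson r over the 23 libraries, a description that is dominated by the chitin libraries at 180 min. For Bra000310 the first 5 genes had r between 0.91 and 0.95. The first was Bra025730 (A06, 7259688 to 7260386), which averaged 127 FPKM in chitin, 33.5 in flg22 and 18.6 in water at 180 min, close to the endochitinase in level as well. It was followed by Bra007315 (A09, 30061980 to 30063070), at 406 FPKM in chitin, 95.1 in flg22 and 28.2 in water at 180 min. Without the chitin libraries at 180 min their r with Bra000310 was 0.88 and 0.72. For the rest of the first 5 genes it fell to 0.51, 0.60 and 0.56. Those genes were low, averaging 0.74, 0.08 and 0.03 FPKM in water at 180 min. The name table used here pairs neither Bra025730 nor Bra007315 with a symbol.

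For Bra017219 the first 5 genes had r between 0.94 and 0.95, led by Bra026090 (A06, 5890007 to 5892805) with 102 FPKM in chitin, 67.1 in flg22 and 47.9 in water at 180 min. Bra023636 (A02, 3272221 to 3274222) was second, with 66.7 FPKM in chitin, 31.8 in flg22 and 19.9 in water. Their r was 0.89 and 0.86 without the chitin libraries at 180 min. In all, 25 genes had an r over 0.9 with Bra017219 and 7 with Bra000310. Neither member was among the genes most like the other, Bra017219 standing at place 844 in the list for Bra000310 and Bra000310 at place 1533 in the list for Bra017219.

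Among the other genes that the paper names as differing with chitin alone at 180 min, also chosen from these libraries, the UDP-glycosyltransferase gene Bra024634 (UGT74B1 in the paper, an enzyme of glucosinolate synthesis) was the nearest to Bra017219, with r = 0.87 over the 23 libraries and 0.74 without chitin at 180 min. It had 329, 294 and 219.9 FPKM in chitin replicates 1, 2 and 3 at 180 min, with replicate 3 lowest. The APK2 gene Bra017872, an adenosine-5′-phosphosulfate kinase of sulfate assimilation, had 113, 97.5 and 57.0 FPKM in the same libraries, with replicate 3 lowest. The CYP79B3 gene Bra030246, of indole glucosinolate synthesis, had 79.6, 73.0 and 73.5 FPKM. How many tested genes had replicate 3 lowest was not counted, so a shared cause was not tested. Over all tested genes, replicate 3 minus the mean of replicates 1 and 2 had a median of 0.08 on the log2 scale. For flg22 over water at 180 min, the fitted log2 fold changes were 1.20 for Bra024634, 0.54 for Bra017872 and -0.17 for Bra030246. At 30 min, Bra030246 was at -1.50 with chitin and -1.56 with flg22 over water. The values of Bra024634 and Bra017872 at 30 min lay between -0.67 and -0.16. The r of these genes with Bra000310 was 0.72 for Bra024634, 0.75 for Bra017872 and 0.61 for Bra030246. Without chitin at 180 min it was 0.30, 0.11 and -0.11.

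The homologs of the chitin receptors, which the paper found by synteny with Arabidopsis and not by these libraries, could be tested. With chitin at 180 min, 4 of 4 genes (the CERK1 homolog Bra031293, the LYK5 homolog Bra021861 and the LYM2 homologs Bra002021 and Bra009660) were higher than in water at an adjusted p under 0.05 from limma, a call made for 21.3% of all tested genes. Their median log2 fold change was 1.61, against -0.12 over all tested genes. With flg22 at 180 min, 2 of 4 were higher (Bra031293 and Bra009660), against 19% of all tested genes, with a median of 0.74. At 30 min, 4 of 4 were higher with chitin and 3 of 4 with flg22 (4 of 4 after median-ratio scaling), against 12% and 13.5% of all tested genes. The chitin count at 30 min was 3 of 4 without chitin replicate 1 or 3, and the flg22 count at 180 min was 3 of 4 without water library 2-s11. Unequal counts do not show that the MAMPs differ. For chitin over flg22 at 180 min, the adjusted p from limma was 0.000571 for Bra021861, with a log2 fold change of 1.90. It was 0.0778 for Bra009660 (0.0242 after median-ratio scaling), 0.119 for Bra002021 and 0.251 for Bra031293. This comparison was added after the counts were seen. The course over time with chitin differed among these genes. For chitin at 180 over 30 min the log2 fold change was -0.26 for Bra031293, 0.70 for Bra002021 and 1.03 for Bra009660. The LYK5 homolog was far higher at 30 min than at 180 min with chitin, with a log2 fold change of -2.92. It had 81.6 ± 23.0 FPKM in chitin at 30 min (SD, n = 3) and 2.55 ± 0.82 in water (SD, n = 5), and 9.65 ± 1.29 in chitin at 180 min (SD, n = 3) and 2.31 ± 1.04 in water (SD, n = 6).

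The chromosomal neighbours did not share the level of the members. The 3 genes on each side of Bra000310 and of Bra017219 were examined, 12 in all, of which 10 entered the model. In 2 of these 10, every chitin library at 180 min was above every water library, and in 4 every chitin library was below, against 20.1% and 28.9% of the tested genes. Next to Bra000310, on the same strand, Bra000311 (A03, 10508139 to 10509454) was far more abundant, at 765 FPKM in chitin, 1192 in flg22 and 564 in water at 180 min, and its chitin and water libraries overlapped. Bra017222 (A04, 16043764 to 16044882), the third gene before Bra017219, went the other way, with 44.9 to 126 FPKM in chitin and 257 to 612 FPKM in water at 180 min. The nearest listed gene was 6981 bases from Bra000310 and 2491 bases from Bra017219, so neither member overlapped another listed gene.

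**Figure D4:**
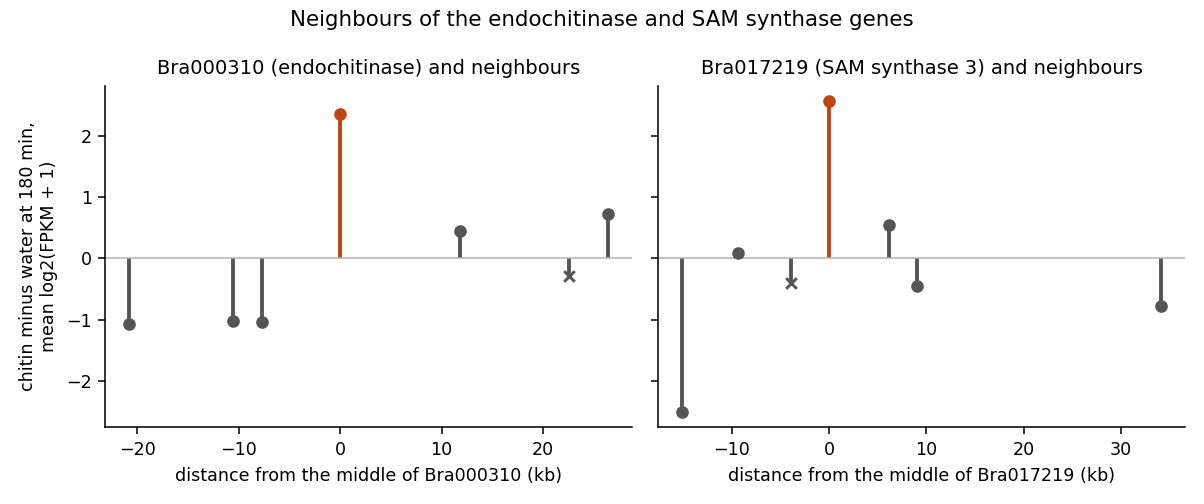
Difference between chitin and water at 180 min in mean log2(FPKM + 1) for each member (orange) and the 3 genes on each side (grey, cross for genes too low to enter the model) against the distance of gene midpoints in kilobases. The members stand at 2.36 and 2.56. The highest neighbour, Bra000313, stands at 0.72 and the lowest, Bra017222, at -2.50.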

How the data were processed

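The study sequenced stranded mRNA libraries of leaf discs. The authors trimmed reads with Trimmomatic 0.36, aligned them with HISAT2 to the v1.5 build of the genome and quantified genes with StringTie 2.0. They deposited 1 table per library with a coverage signal per base, FPKM and TPM. The deposited FPKM values are relative to the library total, so genes that take up more of a library lower the rest, and the deposited TPM values sum to 1 fixed total per library. DESeq2, which the authors ran on read counts for their own calls, was not run here.

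Samples were grouped by their titles. The 24384 genes that reached 1 FPKM in 3 or more libraries were fitted on log2(FPKM + 1) by limma 3.58.1 (R 4.3.3, trended prior variance) with all 23 libraries and 1 coefficient per condition, without a replicate block, and p-values were adjusted by Benjamini-Hochberg over all tested genes. The ratio of coverage to FPKM, constant within a library, gave the aligned bases. Counting intervals were not given, since the files hold no read counts.

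The members, lists and tests were chosen with earlier results of these data known. Named genes are both members, the genes with the highest r to each (5 sought, the first 2 named), 3 neighbours on each side and the genes the paper names as differing with chitin alone at 180 min or as chitin receptors. The name table (RefSeq, assembly CAAS_Brap_v3.01) matched 1 Bra identifier and neither member, so names were taken from the paper, and no list of further chitinase or synthase genes could be drawn up. The BraEF1α gene was on the list but bears on no result.

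In a simulation in which 200 of 24384 genes were shifted by 1.5 (log2), the fit of water at 180 against 30 min recovered 94.5% with 10 false calls. The shifted genes were drawn from the better expressed ones, with independent normal errors for each library. Smaller shifts and deviations shared between libraries were not simulated, so the recovery does not apply to changes as small as those of the members. The replicate numbers pair samples where libraries of equal number deviated together from their condition means (each r over 0.1), which held for chitin against water at 180 min (0.15 to 0.51) and 30 min (0.31 to 0.47) and for flg22 against water at 30 min (0.24 to 0.43), and not for the other contrasts. Alternatives were a pseudocount of 0.1, no filter, TPM, median-ratio scaling, a fit restricted to the compared conditions, a block for replicate number, water libraries averaged within or drawn 1 per number, and each library left out. Their use on the receptor list, other than median-ratio scaling, was chosen after seeing the data, and so were the comparisons of 1 library with the rest of its condition and the r with the other genes named for chitin at 180 min. Replicates are labelled biological.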

Additional observations from a re-analysis of the deposited data

Results flagged for a closer look

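The value of Bra000310 in water library 1-s7 at 180 min, 41.6 FPKM, lay far from the other 5 water libraries of that time, which were between 16.4 and 24.8 FPKM. On the FPKM scale, where the check was made, its gap to the next library was 0.669 of the group's range, above the limit of 0.625 for 6 samples. On the log2(FPKM + 1) scale of the fold changes, it stood at 5.41, the next library at 4.69 and the lowest at 4.12. There the gap stayed under that limit, so the flag depends on the scale. Chance flags about 1 in 20 groups, and 4 groups of water libraries were examined. In the same library Bra017219 was at 28.4 FPKM, within its group. Without this library the log2 fold change of Bra000310 at 180 min was 2.52 for chitin and 0.77 for flg22 over water. The other high water value, 77.4 FPKM of Bra017219 in library 3-s17 at 30 min, had a gap of 0.664 of the range and stayed under the limit of 0.71 for 5 samples.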

How the results depend on the processing

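Median-ratio scaling moved 4 values of Bra000310 by more than the spread between replicates: 0.70 for chitin and 0.63 for flg22 over water at 30 min, 1.72 for chitin at 180 over 30 min and -0.094 for flg22 at 180 over 30 min. The same contrasts of Bra017219 shifted by similar amounts, to 0.32, 0.46, 1.92 and 0.47. These shifts stayed within its larger residual SD, 0.62 on the log2 scale against 0.34 for Bra000310. The genes were chosen by chitin over water at 180 min, so a kept sign of this contrast is no support. Over the 18 alternatives its values ran from 2.08 to 2.65 for Bra000310 and from 2.05 to 3.07 for Bra017219. The ends were set by which water library stood for each replicate number. Omitting the filter, adding the replicate block or restricting the fit to the compared conditions left both values unchanged. Flg22 over water at 180 min ran from 0.33 to 0.90 for Bra000310 and from 0.88 to 1.89 for Bra017219. The water time contrast passed an adjusted p of 0.05 in no alternative, but its size depended on the water libraries, with -0.48 to 0.24 for Bra000310 and -0.98 to 0.36 for Bra017219. With the replicate block it was -0.08 and -0.41, and chitin over water at 30 min was 0.17 and -0.16. The block changed no other call. Leaving out a library gave 0.97 to 1.56 for chitin over flg22 at 180 min in Bra017219. The r between both genes was 0.39 as Spearman rho and 0.15 without chitin at 180 min. Of the 5 genes most like Bra000310, 1 stayed among the first 5 by rho, 1 without chitin at 180 min and 3 after scaling; for Bra017219 these numbers were 4, 3 and 4. With 3 libraries per MAMP and time, small differences could not be resolved.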
